A study of Rattus norvegicus with 8 samples.

Results

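Ileal bile acid recovery was described through 10 genes of uptake, intracellular binding, export and sensing: Slc10a2, Fabp6, Slc51a, Slc51b, Abcc2, Abcc3, Nr1h4, Nr0b2, Fgf15 and Gpbar1. They were chosen by name for these roles. Each was read from the locus that carries its symbol among 52753 loci, and where several loci did, from the one with the most fragments. An exact symbol was found for 9 of the 10, and Fgf15 was read from the locus named Fgf19, which RefSeq lists as a synonym. The study asked how the small intestine of rats with cystic fibrosis (CF), the disease caused by loss of the anion channel CFTR, differs from that of wild-type (WT) rats. There were 4 CF and 4 WT libraries, all from Sprague Dawley rats of postnatal day 21, an age around weaning. RNA came from the full length of the small intestine after a saline and dithiothreitol rinse, so ileum was mixed with duodenum and jejunum. The labels name no Cftr allele, sex or litter, and nothing in them ties a library to its own animal, so p-values measure the spread between these libraries. Each library held 15.3 to 20.9 M assigned fragments, and libraries are called by the numbers 0 to 3 that the table gives within each group, which are only names.

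Bile acids made in the liver are taken up from the lumen of the ileum by the sodium-dependent carrier ASBT, the product of Slc10a2. Inside the enterocyte they are bound by the ileal bile acid binding protein, the product of Fabp6, and leave through the basolateral OSTα-OSTβ dimer, made by Slc51a and Slc51b. They also bind FXR, the nuclear receptor encoded by Nr1h4, which raises transcription of Fabp6, Slc51a, Slc51b, the repressor gene Nr0b2 (SHP) and the hormone gene Fgf15. FGF15 travels to the liver and lowers bile acid synthesis there. Abcc2 and Abcc3 encode export pumps of the apical and basolateral membranes, and Gpbar1 encodes TGR5, a cell-surface bile acid receptor.

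Promoters of 3 members are shown. They were picked because the values below set Fabp6 apart from Slc10a2 and Slc51b, and their part in these values was not tested. FXR binds, with its partner RXR, an inverted repeat of a hexamer spaced by 1 base, and HNF1 factors bind a palindrome found in many intestinal and hepatic promoters. The 250 bases before the start in RefSeq (build GRCr8) were searched on both strands for AGGTCANTGACCT and for GTTAATNATTAAC, each with 12 fixed letters. Capitals mark the closest match to the first motif in Fabp6, to both in Slc51b, and to the second in Slc10a2.
Fabp6, chr10:28569728-28569977 (minus strand): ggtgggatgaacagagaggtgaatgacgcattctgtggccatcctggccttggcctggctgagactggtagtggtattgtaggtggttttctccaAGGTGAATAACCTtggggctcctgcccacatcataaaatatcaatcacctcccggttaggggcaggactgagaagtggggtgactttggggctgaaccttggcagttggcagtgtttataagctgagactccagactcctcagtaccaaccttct
Slc51b, chr8:74835110-74835359 (minus strand): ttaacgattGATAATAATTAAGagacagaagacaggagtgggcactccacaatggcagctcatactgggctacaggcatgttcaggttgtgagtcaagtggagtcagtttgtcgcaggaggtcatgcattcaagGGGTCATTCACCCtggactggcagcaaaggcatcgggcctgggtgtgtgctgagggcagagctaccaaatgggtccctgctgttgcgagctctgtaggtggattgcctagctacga
Slc10a2, chr16:91087839-91088088 (plus strand): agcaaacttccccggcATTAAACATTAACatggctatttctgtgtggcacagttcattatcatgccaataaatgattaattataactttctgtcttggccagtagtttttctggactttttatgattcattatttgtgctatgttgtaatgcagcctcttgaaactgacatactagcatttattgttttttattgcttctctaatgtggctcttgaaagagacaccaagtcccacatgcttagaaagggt
The closest match to the FXR repeat in Fabp6, AGGTGAATAACCT, had 2 mismatches and lay 155 to 143 bases before the start. Of 33469 promoter entries, 1.24% held a match at least this close. Slc51b held GGGTCATTCACCC and Slc51a held AGGACTTTGTCCT, each with 3 mismatches, as close as in 10.3% of promoters. Nr0b2, Slc10a2 and Abcc2 reached 4 mismatches (51.0% of promoters) and Gpbar1 5 (96.6%). The palindrome was matched with 2 mismatches in Slc10a2 (ATTAAACATTAAC) and in Slc51b (GATAATAATTAAG), as in 1.09% of promoters. For it Gpbar1 and Abcc2 had 3 mismatches (7.74%), and Fabp6, Slc51a and Nr0b2 had 5 (78.7%). Such a match is only a run of letters in this window. Entries were found for 7 of the 10 genes, Nr1h4, Fgf15 and Abcc3 having none.

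The libraries were not all alike in the levels of tissue marker genes, and whether the tissue sampled differed was not tested. On the first principal component of all tested loci (31.3% of the variance) CF library 0 lay at −56.9 and CF library 3 at −43.6, while the other 6 lay between 4.12 and 28.6. A marker score is the mean deviation of log2 CPM (counts scaled to a common library size by TMM) of the listed genes from their means over the 8 libraries. Of 15 enterocyte markers, among them Apoa1 and Apoa4, 14 were tested. Their score was −1.02 in CF library 0 against −0.26 to 0.58 in the other 7. The distal small intestine score (8 of 8 markers, among them Cubn and Mep1a) was −0.87 in CF library 0, −0.11 in CF library 3 and −0.14 to 0.55 in WT. The proximal score (9 of 9, among them Gata4) was −0.37 in CF library 0, −0.18 in CF library 3 and −0.02 to 0.22 in WT. Smooth muscle markers (5 of 7) summed to 4750 to 6341 CPM in CF and 2877 to 4295 CPM in WT, with no overlap of the sums. Singly, Des and Cnn1 separated the groups, while Acta2, Myh11 and Lmod1 overlapped (1.09-fold, 1.10-fold and 1.08-fold, CF over WT). Des, the muscle intermediate filament gene, averaged 1507 ± 338 CPM in the CF group and 770.3 ± 114 in the WT group (SD, n = 4 per group, edgeR adjusted p = 0.0689). Of 7 hepatocyte markers 6 were under the filter, with 7 fragments of Alb, 0 of Ahsg and 36 of Apoh over all libraries. The tested one, Serpina1, had 3.44 to 4.28 CPM in 7 libraries and 20.8 CPM in WT library 0. The summed hepatocyte level was 4.59 to 5.06 CPM in CF and 4.01 to 21.6 CPM in WT. The groups overlapped in the scores of macrophage markers (among them C1qb and C1qc) and of colonocyte markers (among them Slc26a3 and Ceacam1). Cftr averaged 97.3 ± 6.40 CPM in the CF group and 94.8 ± 14.7 in the WT group, a level that checks no label, since the allele is not given.

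**Figure D1:**
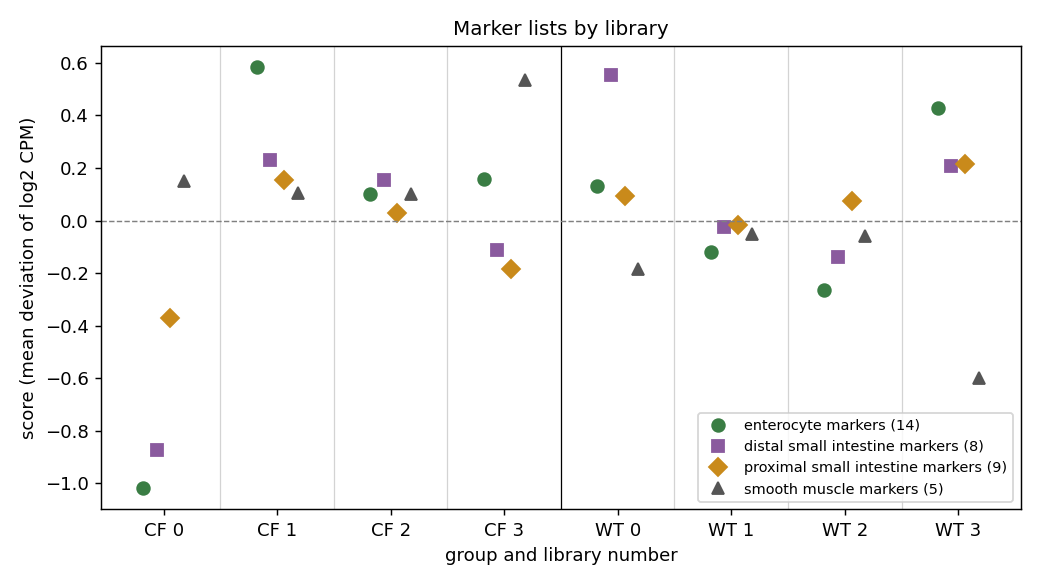
Marker scores by library, as the mean deviation of log2 CPM from the 8-library mean, for enterocyte, distal, proximal and smooth muscle lists (number of scored genes in brackets). CF library 0 is lowest for the first 3 lists, and smooth muscle points of all 4 CF libraries lie above those of all WT libraries.

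None of the 9 members with enough fragments to test passed the threshold between CF and WT. The threshold was an adjusted p of 0.05 in edgeR's quasi-likelihood fit (Benjamini-Hochberg over 16941 loci), which 0.165% of loci (28) passed. At an unadjusted p of 0.05, which 15.1% of loci passed (7.94% of all tested loci passed and were higher in CF), 1 member passed, Abcc3. Means were higher in CF for 6 members and lower for 3, and the median log2 fold change (CF over WT) was 0.15, against −0.005 over all loci. In none of the 9 did the groups separate, where 8.78% of all tested loci had groups that did not overlap. Adjusted p-values of the 9 ran from 0.199 to 0.932. The precision differed between members: the 95% interval for Fabp6 ran from 0.184-fold to 2.36-fold, and that for Nr1h4 from 0.861-fold to 1.36-fold.

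**Figure D2:**
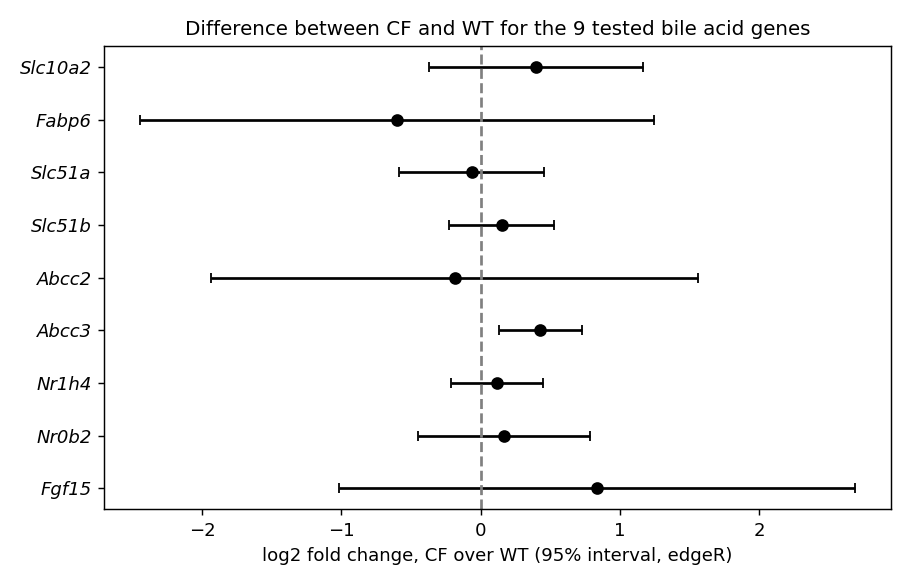
Log2 fold change, CF over WT, of the 9 tested genes with 95% intervals from edgeR, 4 libraries per group. The intervals of 8 genes include 0, that of Abcc3 runs from 0.13 to 0.73, and those of Fabp6, Abcc2 and Fgf15 are the widest.

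Per transcript length, Fabp6 had the highest mean of the 10 genes and was the highest in 7 of 8 libraries. The authors' FPKM (fragments scaled by transcript length and library size) of Fabp6 averaged 1205 ± 707 (SD over the 8 libraries), above Slc51a in 8 of 8 libraries. In CF library 0 Slc51b (169.8 FPKM) exceeded Fabp6 (138 FPKM). Slc51a (207 ± 48.7 FPKM) and Slc51b (191 ± 30.3 FPKM), whose products form the dimer, were close, with Slc51a higher in 6 of 8 libraries. The uptake carrier Slc10a2 came next at 29.6 ± 15.6 FPKM, with a range that did not meet that of Slc51b. It was not separable from the receptor Nr1h4 (24.9 ± 4.14 FPKM), being higher in 4 of 8 libraries. Below them were Abcc3 (10.8 ± 2.14 FPKM, under Nr1h4 in every library), Abcc2 (5.46 ± 3.61), Nr0b2 (4.40 ± 1.25) and Fgf15 (4.09 ± 3.60). The order of these last 3 changed from library to library, Abcc2 exceeding Nr0b2 in 5 of 8 and Nr0b2 exceeding Fgf15 in 6 of 8. Gpbar1 was at 0.114 ± 0.0774 FPKM.

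Slc10a2, the uptake carrier gene (chromosome 16, 90323864 to 90350458, Rnor_6.0), was at 38.5, 87.3, 71.1 and 118 CPM in CF libraries 0 to 3. In WT libraries 0 to 3 it was at 43.1, 81.5, 69.1 and 46.0 CPM. The groups overlapped, CF holding both the lowest and the highest library. Group means were 78.8 ± 33.2 (CF) and 59.9 ± 18.5 CPM (WT; SD, n = 4 each), for a log2 fold change of 0.39 (SE 0.34, edgeR adjusted p = 0.622). Without CF library 0 it was 0.62 (adjusted p = 0.297), and without CF library 3 it was 0.13 (adjusted p = 0.927). A second locus of the same symbol and span, whose strand the table does not give, held 22.4% to 40.2% as many fragments. It averaged 26.1 ± 15.5 CPM (CF) and 16.0 ± 4.61 CPM (WT) and was again highest in CF library 3. Its log2 fold change was 0.70 (SE 0.41, adjusted p = 0.462), and that of the summed loci was 0.47 (adjusted p = 0.565), a sum added after the data were seen. In this mixed tissue, a difference in the number of ileal enterocytes and one in RNA per cell cannot be told apart.

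Fabp6 (chromosome 10, 29191622 to 29196563), the binding protein gene, split the CF libraries. Its levels were 71.7, 1114, 888 and 166 CPM in CF libraries 0 to 3, and 525, 1072, 848 and 957 CPM in WT libraries 0 to 3. CF libraries 0 and 3 lay below every WT library, while CF libraries 1 and 2 lay inside or just above the WT range. The highest CF library exceeded the lowest 15.5-fold, where the WT libraries spanned 2.04-fold. The SD of log2 CPM over the CF libraries, 1.91, was larger than that of 99.6% of tested loci, and the WT value of 0.45 larger than that of 83.3%. Group means were 560.0 ± 519 (CF) and 850.5 ± 235 CPM (WT; n = 4 each), with a log2 fold change of −0.60 (SE 0.79, 95% interval −2.45 to 1.24, edgeR adjusted p = 0.764). With 1 library left out the log2 fold change ranged from −1.18 (without CF library 1) to −0.23 (without CF library 0), being −0.92 without CF library 2 and −0.30 without CF library 3. It was −1.30 with limma-voom and −1.22 on both FPKM scales, log2(FPKM + 1) and log2(FPKM + 0.1), and passed the threshold in none of these fits.

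**Figure D3:**
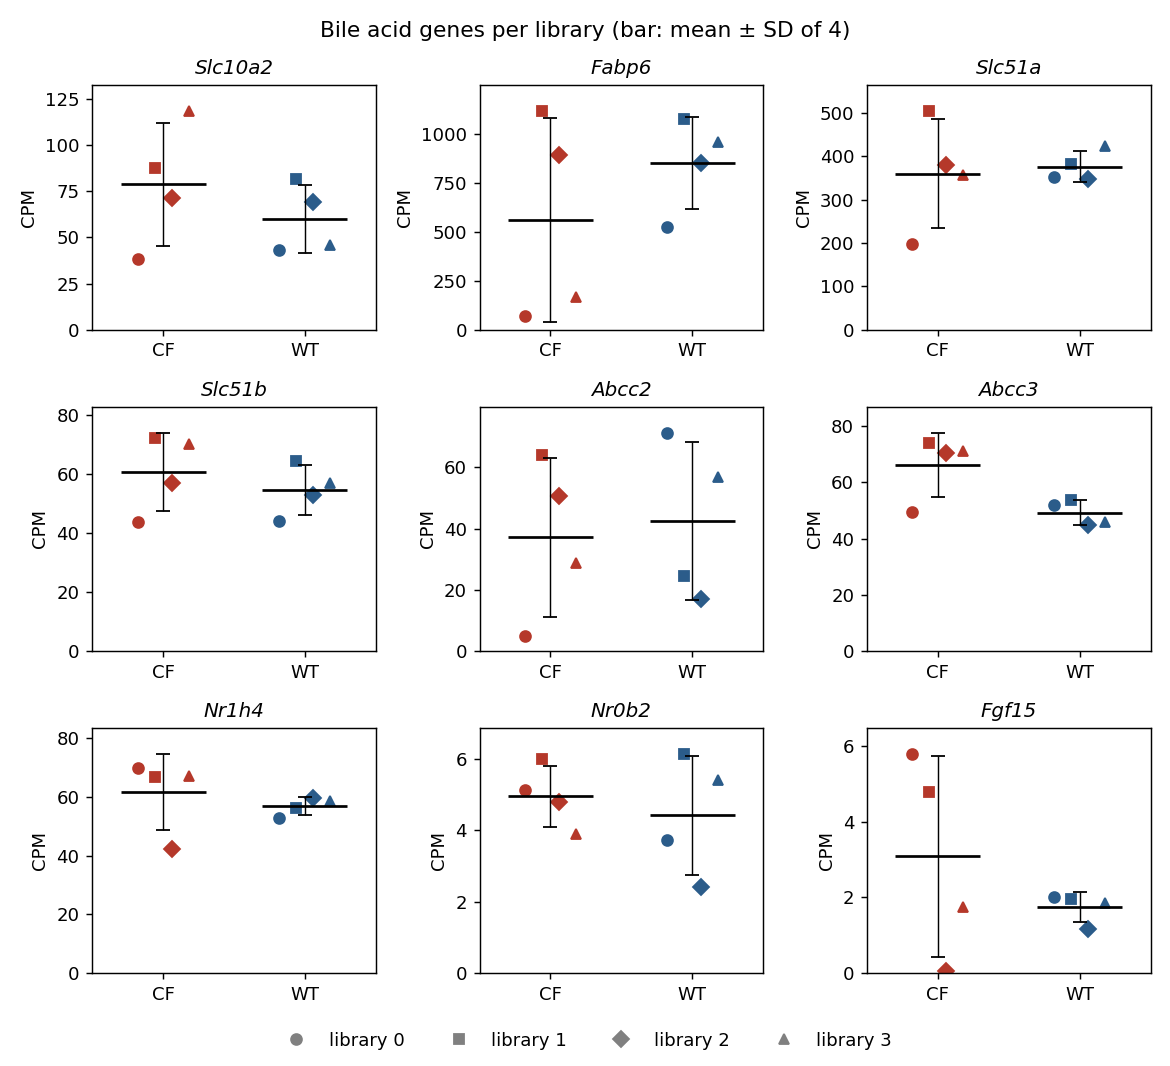
CPM of the 9 tested genes in each library (points, shaped by library number), with the mean as a bar and the SD over 4 libraries as error bars. For Fabp6, CF libraries 0 and 3 (71.7 and 166 CPM) lie below all WT libraries, while for Abcc3 it is CF library 0 alone that lies among them.

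Fabp6 and Slc10a2 parted in CF library 3, where by CPM Slc10a2 was the highest of all 8 libraries and Fabp6 the second lowest. By FPKM, Slc10a2 was at 50.8 there and at 51.4 in CF library 1. For each fragment of Slc10a2 there were 1.86 fragments of Fabp6 in CF library 0, and in CF library 3 there were 1.40. The other CF libraries had ratios of 12.8 and 12.5, and the WT libraries 12.2, 13.2, 12.3 and 20.8. The ratio therefore took similar values, 12.2 to 13.2, in 5 of the 8 libraries, with 2 CF libraries far below and 1 WT library above. Against Slc51a, the ratio of Fabp6 was 0.363 in CF library 0, 2.21 and 2.33 in the next 2 of that group and 0.464 in CF library 3. The WT libraries had 1.49 to 2.81. These ratios were formed after the levels were seen, and the groups overlapped in both. On log2 ratios two-sided exact permutation tests gave p = 0.171 for Fabp6 to Slc10a2 and p = 0.200 for Fabp6 to Slc51a, each 0.200 after Benjamini-Hochberg adjustment over 3 ratios. The smallest p that 70 splits allow is 0.0286.
The same 2 libraries had the lowest first principal component values and the lowest distal and proximal scores of the CF group, as given above. On the proximal list both (−0.37 and −0.18) scored lower than any WT library, the WT minimum being −0.02. On the distal list only CF library 0 did by score (−0.87), since CF library 3 (−0.11) scored higher than the lowest WT library (−0.14). By summed CPM of that list, in which Mep1a had the highest mean, both (343 and 540) lay below the lowest WT library (754.5). The part of these scores and component values in the ratios was not tested. The enterocyte scores of the 2 libraries differed. CF library 0 had −1.02, and CF library 3 had 0.16, the latter inside the WT range.

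**Figure D4:**
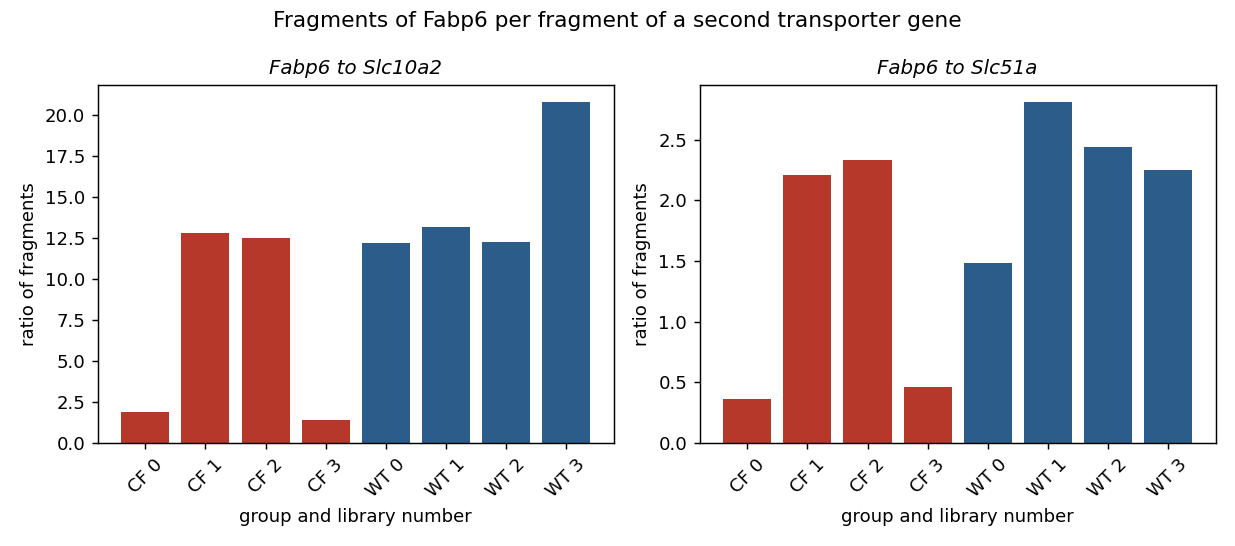
Fragments of Fabp6 per fragment of Slc10a2 (left) and of Slc51a (right) in each library, CF in red and WT in blue, both axes from 0. CF libraries 0 and 3 stand at 1.86 and 1.40 on the left and at 0.363 and 0.464 on the right, below the other 6 libraries in each panel.

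The 2 genes of the basolateral exporter varied less than Fabp6. Slc51a (chromosome 11, 71533077 to 71547476) was at 197, 505, 381 and 357 CPM in CF libraries 0 to 3 and at 354, 382, 347 and 424 CPM in WT libraries 0 to 3. CF libraries 0 and 1 lay below and above the whole WT range, and the other 2 lay inside it. Group means were 360.0 ± 126 (CF) and 377 ± 35.1 CPM (WT; n = 4 each), with a log2 fold change of −0.07 (SE 0.23, edgeR adjusted p = 0.923) that was 0.14 without CF library 0. Slc51b (chromosome 8, 70915952 to 70932986, a span shared with Rasl12) was at 43.7, 72.3, 56.9 and 70.2 CPM in CF libraries 0 to 3. In WT libraries 0 to 3 it was at 44.3, 64.6, 53.0 and 57.2 CPM. CF libraries 1 and 3 lay above the WT range, CF library 0 just below it and CF library 2 inside it. Its log2 fold change was 0.15 (SE 0.17, adjusted p = 0.718), and 0.28 without CF library 0 (adjusted p = 0.359). In CF library 3, where Fabp6 was low, Slc51b was by CPM the second highest of the 8 libraries. Slc51a was inside the WT range by CPM. By FPKM, Slc51b there (182.2) was inside the WT range (157.6 to 194.1), and Slc51a (152.5) was below its own (204 to 226.7). The ratio of Slc51a to Slc51b fragments was 4.52 in CF library 0, 5.09 in CF library 3 and between 5.91 and 7.98 in the other 6 (two-sided exact permutation p = 0.200).

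The export pumps differed from each other in how steady they were. Abcc2 (chromosome 1, 263554452 to 263615487), the apical pump gene, was at 4.97, 64.1, 50.8 and 29.0 CPM in CF libraries 0 to 3. In WT libraries 0 to 3 it was at 71.3, 24.6, 17.0 and 56.8 CPM. It varied widely in both groups, 12.9-fold in CF and 4.18-fold in WT, and the SD of its log2 CPM exceeded that of 99.3% of loci in CF and 97.8% in WT. Group means were 37.2 ± 25.9 (CF) and 42.4 ± 25.8 CPM (WT), with a fold change of −0.19 on the log2 scale (SE 0.75, adjusted p = 0.932) that was 0.18 without CF library 0 and 0.19 without WT library 0.

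Abcc3 (chromosome 10, 82047077 to 82197848), the basolateral pump gene, came nearest to the threshold. It was at 49.4, 74.1, 70.3 and 71.2 CPM in CF libraries 0 to 3 and at 52.1, 53.9, 44.9 and 46.1 CPM in WT libraries 0 to 3. By CPM, CF libraries 1 to 3 lay above every WT library, while CF library 0 lay inside the WT range. By FPKM, CF library 0 (11.02) lay above every WT library (8.81 to 10.67), and CF library 3 (9.96) lay inside their range. Group means were 66.2 ± 11.3 (CF) and 49.2 ± 4.42 CPM (WT; n = 4 each), 1.34-fold, with a log2 fold change of 0.43 (SE 0.14, 95% interval 0.13 to 0.73). The unadjusted p was 0.00963 and the adjusted p = 0.199 by edgeR. Without CF library 0 the log2 fold change was 0.55 and Abcc3 passed (adjusted p = 0.0392), in a fit that called 136 loci in place of 28. It also passed with no filter on low counts (0.47, adjusted p = 0.0489), where 1.38% of 40061 loci passed. DESeq2 gave an adjusted p of 0.0973 (3.10% of 18265 loci passed) and limma-voom 0.229 (0.1% of loci). With limma the adjusted p was 0.691 on log2(FPKM + 1) and 0.699 on log2(FPKM + 0.1). With the library number as a block, edgeR gave 0.301. Its long span also holds loci of Cacna1g, a calcium channel gene. Of the 5 smooth muscle markers Des and Cnn1 separated the groups, as given above, and their part in the Abcc3 values was not tested.

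The receptor gene Nr1h4 (chromosome 7, 29935591 to 30162056, a span shared with Gas2l3) was at 69.96, 66.9, 42.3 and 67.4 CPM in CF libraries 0 to 3. In WT libraries 0 to 3 it was at 52.9, 56.2, 59.7 and 58.8 CPM, with an SD of log2 CPM (0.08) that only 8.48% of loci undercut. CF libraries 0, 1 and 3 lay above the WT range and CF library 2 below it. Group means were 61.6 ± 12.9 (CF) and 56.9 ± 3.02 CPM (WT; n = 4 each), with a log2 fold change of 0.11 (SE 0.15, edgeR adjusted p = 0.758). Without CF library 2 it was 0.26 (adjusted p = 0.233). By CPM, CF library 0, lowest of all in Slc10a2, Fabp6, Slc51a, Slc51b and Abcc2, had the highest Nr1h4. By FPKM, Nr1h4 was higher in CF library 1 (31.1 against 30.5), and Slc51b was lower in WT library 0 (157.6 against 169.8).

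Nr0b2 (chromosome 5, 151770337 to 151779319), the gene of the repressor SHP, was scarce. It was at 5.11, 5.98, 4.79 and 3.89 CPM in CF libraries 0 to 3 and at 3.71, 6.12, 2.42 and 5.39 CPM in WT libraries 0 to 3. All CF libraries lay inside the WT range. It was the 1 member of the 9 whose log2 CPM varied more in WT (SD 0.59) than in CF (SD 0.25). The log2 fold change was 0.17 (SE 0.28, adjusted p = 0.819), and −0.04 without WT library 2.

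Fgf15 (chromosome 1, 218058404 to 218061693), the enterocyte hormone gene, rested on few fragments: 120, 85, 1 and 35 in CF libraries 0 to 3 and 33, 39, 25 and 27 in WT libraries 0 to 3. These counts gave 5.79, 4.79, 0.0532 and 1.75 CPM for the CF libraries and 2.01, 1.96, 1.16 and 1.84 CPM for the WT libraries. CF libraries 0 and 1 were above all WT libraries, CF library 3 was within their range, and CF library 2 was far below. The 95% Poisson interval of the single fragment in CF library 2 reached 5.57 fragments, while that of WT library 2, the lowest of the other 7, began at 16.2. These intervals cover counting error only. The SD of log2 CPM over the CF libraries was 2.39, larger than that of 99.8% of loci. Group means were 3.10 ± 2.66 (CF) and 1.74 ± 0.392 CPM (WT; n = 4 each), with a log2 fold change of 0.83 (SE 0.81, edgeR adjusted p = 0.673). Without CF library 2 it was 1.24 (adjusted p = 0.170), without CF library 0 it was 0.33, and limma-voom with all 8 libraries gave −0.25. CF library 2 was also the lowest of all 8 in Nr1h4, while its Fabp6, Slc51a and Slc51b lay inside the WT range. CF library 0 had the most Fgf15 and the least Fabp6.

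Gpbar1 (chromosome 9, 81559604 to 81560594), the cell-surface receptor gene, was barely detected. It had 3, 3, 1 and 3 fragments in CF libraries 0 to 3 and 0, 1, 2 and 1 in WT libraries 0 to 3. The 95% Poisson interval of the count of 0 in WT library 0 reached 3.69 fragments. No difference was detectable at this depth, and no fold change is given.

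**Figure D5:**
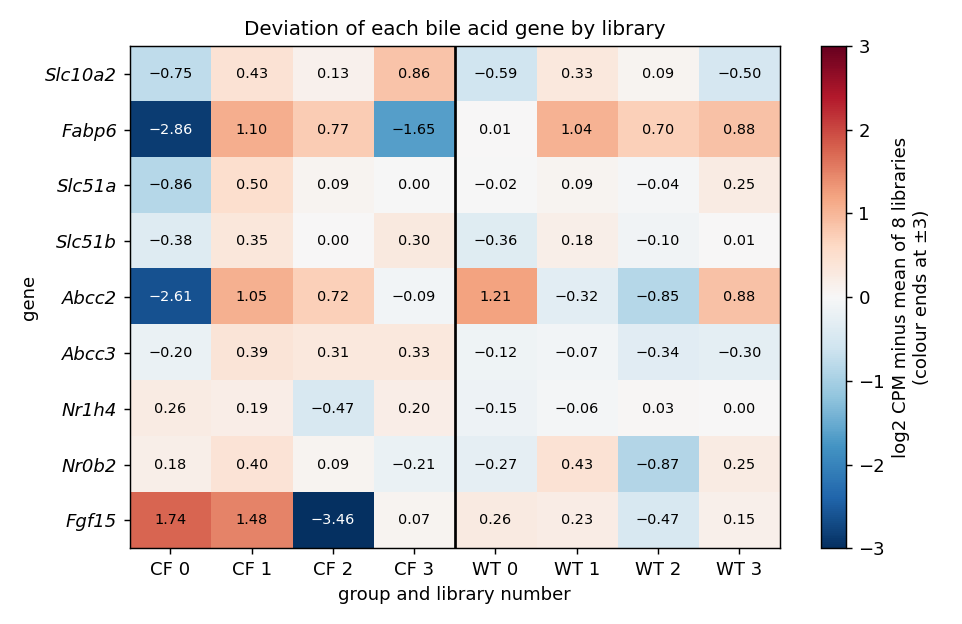
Log2 CPM of each tested gene in each library minus its mean over the 8 libraries, with the values printed in the cells and the colour scale ending at ±3. In CF library 0 Fabp6 and Abcc2 are lowest (−2.86 and −2.61) while Fgf15 is highest (1.74), and in CF library 2 Fgf15 is lowest (−3.46).

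Within the CF group the members did not all move together. In CF library 0, 6 of the 9 were under their 8-library mean, with log2 deviations from −0.20 (Abcc3) to −2.86 (Fabp6), and Nr1h4, Nr0b2 and Fgf15 were above it. CF library 1 was above the mean in all 9. CF library 2 was below it in Nr1h4 (−0.47) and Fgf15 (−3.46), and CF library 3 most of all in Fabp6 (−1.65). The log2 CPM of 8 of the 9 members varied more among CF than among WT libraries, as did 57.2% of all tested loci, where the median SD was 0.25 in CF and 0.22 in WT. The marker scores set out above also varied between CF libraries, and their part in this spread was not tested.

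The wider pathway was read from 3 gene lists, and no tested gene in them passed the threshold. Of 20 nuclear receptor partners and regulators, all tested, 11 had higher and 9 lower means in CF (median log2 fold change 0.005). Hnf4a, a nuclear receptor that sustains enterocyte transcription, averaged 625 ± 83.9 CPM (CF) and 543 ± 60.5 CPM (WT; log2 fold change 0.20, SE 0.14). Its relative Hnf4g was at 274 ± 86.9 and 266.0 ± 36.6 CPM, and the corepressor gene Ncor1 at 273 ± 38.3 and 278 ± 36.5 CPM. Of 10 tested FXR-linked target genes 6 had higher and 4 lower means (median 0.19), 11 of the 13 listed having been matched. Sdc1, a cell-surface proteoglycan gene, was at 202, 229, 244 and 258 CPM in CF libraries 0 to 3 and at 170 to 196 CPM in WT. Its groups did not overlap, as in 8.78% of all tested loci (log2 fold change 0.32, SE 0.11, adjusted p = 0.228 by edgeR). In the other lists the groups of Rxrb (log2 fold change −0.26) and of the scarce Abcb11 (−0.80) did not overlap either, with lower means in CF. The efflux pump gene Abcg2 was at 205 ± 74.1 and 149 ± 16.0 CPM (0.46, SE 0.25, edgeR adjusted p = 0.432). It passed only without CF library 0 (0.68, edgeR adjusted p = 0.0483), in a fit that called 136 loci in place of 28. Cyp3a9, a cytochrome of steroid and drug oxidation, was at 134, 464, 164 and 629 CPM in CF libraries 0 to 3 and at 232 to 280 CPM in WT.

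Of 15 genes of bile acid synthesis and transport known from the liver, 8 had enough fragments to be tested, 4 with higher and 4 with lower means (median log2 fold change −0.04). Cyp7a1, the rate-limiting enzyme of hepatic synthesis and the gene that FGF15 represses there, had 0 fragments in all libraries. The 3 with the highest mean CPM, a scale that does not correct for length, were Cyp27a1, a sterol hydroxylase (25.2 ± 17.4 CPM in CF, 24.7 ± 3.86 in WT), Amacr, a racemase of side-chain oxidation (18.2 ± 8.34 and 26.3 ± 9.59), and Fgfr4 (13.2 ± 1.30 and 10.5 ± 2.3). Per length, Amacr averaged 12.8 FPKM, Cyp27a1 9.17, Hsd3b7 5.50 and Fgfr4 3.74. Fgfr4 encodes the receptor on which FGF15 acts in the liver, and Klb, the gene of its coreceptor, had 19 fragments in all 8 libraries.

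The genes whose levels ran closest to a member's across libraries were taken from 12866 loci by Pearson r of log2 CPM over the 8 libraries after each group's mean was removed. These are the highest of many values, all share the libraries and their tissue makeup, and they are given as a description. For Fabp6 they were Ppfia3 (r = 0.997), Sesn1 (0.992) and Naaladl1 (0.989). Ppfia3 was at 2.314, 7.955, 7.555 and 3.591 CPM in CF libraries 0 to 3 and at 3.043 to 4.415 CPM in WT. Unlike that of Fabp6, its mean was higher in CF. Naaladl1, a peptidase gene, was at 146, 711, 636 and 268 CPM in CF libraries 0 to 3 and at 591 to 819 CPM in WT, with CF libraries 0 and 3 again below every WT library. Sesn1, a stress-response gene, was at 41.1, 63.1, 62.6 and 47.1 CPM in the CF libraries and at 65.5 to 76.8 CPM in WT. For Slc10a2 they were Capn8 (0.978), Hspa2 (0.968) and AABR07001592.1 (0.964). Capn8, a calpain protease gene, was at 3.42, 14.2, 12.9 and 30.1 CPM in CF libraries 0 to 3 and, like Slc10a2, highest in CF library 3. For Fgf15 they were Arl8b (0.946), Emc3 (0.939) and Arhgap10 (0.928), whose levels in CF library 2 were the lowest of the 8 for all 3 genes. Arl8b, a lysosomal GTPase gene, ranged only from 102.4 to 122.5 CPM.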

How the data were processed

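Stranded mRNA sequencing of whole small intestine was analysed for 4 CF and 4 WT libraries. The submitters' processing notes name STAR 2.3.1z, Cuffdiff, StringTie, cutadapt and bcl2fastq and the build Rnor_6.0, without roles or settings. The estimated counts in use are Cuffdiff's raw fragments per locus, deposited by the authors before scaling. The FPKM values were made by the authors with Cuffdiff and served for levels between genes and for 2 alternatives, log2(FPKM + 1) and log2(FPKM + 0.1) with limma. Of the counts 5.99% were fractional, and all were rounded. 2 other per-library columns were left aside.

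Loci passing filterByExpr (minimum count 10, minimum total 15) were scaled by TMM and tested with edgeR 4.0.16 (robust quasi-likelihood, R 4.3.3), with Benjamini-Hochberg adjustment over 16941 loci and a threshold of 0.05. SE is the log2 fold change over the square root of F. Log2 CPM used a prior count of 2. Depth, 15.3 to 20.9 M fragments, limits Gpbar1 and leaves Fgf15 on few fragments. Alternatives changed scaling, filter, rounding, test, unit and libraries (limma 3.58.1, DESeq2 1.42.0). The fit was also run on simulated counts that had 1 common dispersion (0.0485) for all loci. These cannot show its power for members of wide spread such as Fabp6, Fgf15 and Abcc2.

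The members and lists were chosen with earlier results of these data known. Named genes were all members, the 3 with the highest mean CPM and any called genes of each pathway list, 2 of each marker list, and the 3 loci most like Slc10a2, Fabp6 and Fgf15. Klb, Cyp7a1, Hsd3b7, Rxrb, Abcb11, Alb, Ahsg and the other smooth muscle markers were named after their values were seen. Table numbers 0 to 3 do not show which sample title a library carries, and no result uses that tie. Listed genes without a locus of their own (Nos2, Abcb1a, Sis, Saa1) or found only in loci with several symbols (Tagln, Actg2) were not analysed here.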

Additional observations from a re-analysis of the deposited data

Results flagged for a closer look

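In 62 pairs of a gene and a group of 4 libraries, 5 had 1 library far from the other 3, by Dixon's gap test at the 95% level. Chance alone gives about 1 in 20 such groups. Among the bile acid genes, Nr1h4 was lowest in CF library 2 at 42.3 CPM, the other CF libraries holding 66.9 to 69.96 CPM. Abcc3 was lowest in CF library 0 at 49.4 CPM, the others holding 70.3 to 74.1 CPM. Of the list genes, Sdc1 was lowest in WT library 2 (170 CPM, the others 191 to 196), Myh11 was lowest in WT library 3 (1301 CPM, the others 2050 to 2102), and Serpina1 was highest in WT library 0 (20.8 CPM, the others 3.71 to 4.28).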

How the results depend on the processing

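Nr1h4, Slc10a2, Slc51b, Fabp6 and Abcc3 kept their direction in all 18 alternatives each, and no member but Abcc3 passed the threshold in any. Loci past the threshold, 28 in the fit reported, numbered 566 with DESeq2, 553 with no low-count filter, 17 with limma-voom and 5 to 136 with 1 library left out (136 without CF library 0, 77 without CF library 2, 5, 5 and 6 without WT libraries 1, 2 and 3). With the library number as a replicate block there were 11, and 0 members. The numbers are not shown to pair the libraries (correlations of same-numbered deviations 0.07, −0.11, 0.16 and −0.01, and 2 of 4 numbers matched themselves best). These correlations cannot exclude a pairing. Members past the threshold numbered 1 with no filter and 0 to 1 with 1 library left out, that 1 being Abcc3 without CF library 0. The log2 fold change of Fgf15 was −0.25 with limma-voom and −0.22 on log2(FPKM + 0.1). That of Fabp6 was −1.31 with the replicate block. With 1 library left out, that of Nr0b2 ran from −0.044 to 0.37, Slc51a from −0.27 to 0.14 and Abcc2 from −0.58 to 0.19. Of 179 values for 10 other loci (named list genes and the second locus of Slc10a2) 159 kept direction and call, 19 reversed and 1 passed (Abcg2). Hnf4g was −0.013 with limma-voom, −0.057 on log2(FPKM + 0.1), −0.056 on log2(FPKM + 1), −0.0041 with the replicate block and −0.10 to 0.24 with 1 library left out. Cyp27a1 was −0.24 with limma-voom, −0.24 on log2(FPKM + 0.1), −0.21 on log2(FPKM + 1), −0.22 with the replicate block, −0.016 with upper-quartile scaling and −0.48 to 0.28 with 1 library left out. Ncor1 was 0.015 with no filter and −0.11 to 0.056 with 1 library left out. The cause of these changes was not tested. Scaling moved the median of all loci from −0.005 to −0.04 (upper quartile). Fgf15 (25 to 120 fragments in 7 libraries, 1 in the other) and Gpbar1 are limited by depth.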
